A study of Mus musculus with 29 samples.

Results

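Phosphoinositide 3-kinase (PI3K) signaling was described through 8 genes that were matched by symbol: Pik3ap1, Pik3cd, Pik3cg, Pik3r1, Inpp5d, Akt1, Akt2 and Foxo3. All 8 were found, once each, among 24732 entries of the mm9 tables and among 25588 entries of the mm10 tables. The RNA-seq values came from pro-B cells of C57BL/6 mice that were sorted ex vivo from bone marrow: 3 wild-type libraries and 2 Pax5(-/-) libraries, aligned to mm9, and 3 libraries of Pax5(+/+) Meox2-cre cells, aligned to mm10. Pax5 is the transcription factor that commits lymphoid progenitors to the B cell lineage, and the Pax5(-/-) mice carry a germline null allele on both chromosomes. The Meox2-cre cells were pooled, came from mice at the age of 3 weeks and carry a Cre gene that is active in the early embryo. Their labels give Pax5(+/+), whereas the list of sequencing experiments of the study gives Pax5(+/-) Meox2(Cre/+). No age is given for the wild-type and Pax5(-/-) mice. The gates of the sort were not the same for both genotypes. Ly6D, a marker of B cell progenitors, was required of the Pax5-deficient cells, which the methods of the study define as progenitors. Absence of CD2, IgM and IgD was required only of pro-B cells. A difference in stage between the sorted cells cannot be told apart from a difference between the genotypes.

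In this pathway, class I PI3K phosphorylates the membrane lipid PIP2 to PIP3. A catalytic subunit (p110δ, encoded by Pik3cd, or p110γ, encoded by Pik3cg) acts with a regulatory subunit, of which p85α is encoded by Pik3r1. The adaptor BCAP, encoded by Pik3ap1, brings the kinase to the membrane in B cells. The phosphatase SHIP1, encoded by Inpp5d, removes the 5-phosphate of PIP3. PIP3 recruits the kinases AKT1 and AKT2, which phosphorylate FOXO transcription factors such as FOXO3 and thereby keep them out of the nucleus. In early B cells, FOXO proteins are known activators of the recombinase genes and Il7r, and PI3K signaling is known to oppose them.

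The promoter sequences of the 3 members that differed between the genotypes by the test below are shown because they display how unlike the start sites of these genes are. RefSeq (GRCm38.p6) gave 16 start windows, of 250 bases before and 50 bases after a start, for all 8 members. Capitals mark CG dinucleotides, and each sequence is written 5′ to 3′ on the strand of the gene.
Pik3ap1, chr19:41385053-41385352, minus strand: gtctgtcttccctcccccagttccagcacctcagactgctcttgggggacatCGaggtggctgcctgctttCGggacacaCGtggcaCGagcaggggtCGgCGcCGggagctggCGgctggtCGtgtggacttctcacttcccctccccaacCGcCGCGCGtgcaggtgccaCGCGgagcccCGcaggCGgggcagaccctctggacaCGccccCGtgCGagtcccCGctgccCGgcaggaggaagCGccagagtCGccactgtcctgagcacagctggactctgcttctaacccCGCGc
Pik3r1, upstream start, chr13:101768168-101768467, minus strand: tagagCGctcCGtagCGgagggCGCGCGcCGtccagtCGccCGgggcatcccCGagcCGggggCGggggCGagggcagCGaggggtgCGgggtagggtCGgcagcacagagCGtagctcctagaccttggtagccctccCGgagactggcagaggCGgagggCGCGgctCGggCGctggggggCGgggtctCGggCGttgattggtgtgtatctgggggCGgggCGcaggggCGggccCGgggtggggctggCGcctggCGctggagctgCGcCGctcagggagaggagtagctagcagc
Pik3r1, downstream start, chr13:101692581-101692880, minus strand: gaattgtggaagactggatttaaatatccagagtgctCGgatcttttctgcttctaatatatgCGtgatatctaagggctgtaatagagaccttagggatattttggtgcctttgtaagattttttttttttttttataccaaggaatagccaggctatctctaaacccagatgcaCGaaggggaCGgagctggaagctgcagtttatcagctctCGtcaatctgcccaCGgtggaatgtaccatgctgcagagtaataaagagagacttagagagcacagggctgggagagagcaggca
Akt2, first of 4 starts, chr7:27591302-27591601, plus strand: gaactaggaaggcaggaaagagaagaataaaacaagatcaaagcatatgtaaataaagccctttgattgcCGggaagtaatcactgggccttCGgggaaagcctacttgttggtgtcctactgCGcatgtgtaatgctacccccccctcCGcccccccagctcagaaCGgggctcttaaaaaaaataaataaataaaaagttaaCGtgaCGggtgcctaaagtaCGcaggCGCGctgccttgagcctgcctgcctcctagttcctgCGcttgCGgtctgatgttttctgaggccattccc

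The window of Pik3ap1 held 26 CG dinucleotides and that of the upstream Pik3r1 start held 34, whereas the median of 32851 windows was 7. The downstream Pik3r1 start had 6 CG dinucleotides, and the first Akt2 start had 12. TPM per gene do not tell which start was used. The letters GCGTGAC, a core of Pax sites, occurred on neither strand of the 16 member windows and in 2.09% of all windows. CAGGTG, an E protein motif, was found at Pik3ap1 and Pik3cd and in 20.2% of all windows. GAGGAA, an ETS motif, was found in 7 member windows, of 5 members including Pik3ap1, and in 28.3% of all windows. The 2 Pik3cg windows overlap and share their GAGGAA matches. TTCNNNGAA, the STAT motif, was found only in the first of the 4 Akt2 windows among members and in 8.3% of all windows. GTAAACA, a FOXO motif, was found in 1 window each of Pik3cg and Akt1 and in 3.65% of all windows. Both strands were searched, and no 2 matches in a member window overlapped.

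The labels and the cell types were checked first. Pax5 was at 342 to 391 TPM in wild-type and at 39.1 and 43.0 TPM in Pax5(-/-) libraries, and values per gene do not tell whether the remaining reads lie outside the disrupted part. TPM is an abundance that accounts for transcript length and is scaled to the same sum in each library, so that genes can be compared. The summed TPM of 13 pro-B markers was 13356 to 15928 in wild-type, 7199 and 7657 in Pax5(-/-) and 15848 to 17474 in Meox2-cre libraries, and 9 of the 13 had a lower mean in Pax5(-/-). Ly6d, whose product was a gate for the Pax5-deficient cells, went the other way within this sum, from 190 to 270 TPM in wild-type to 2258 and 3033 TPM in Pax5(-/-). The sum of each list of markers of other cells was far below that of the pro-B markers, but not every single marker was low. Slc4a1, an erythroid marker, was at 93.3, 162 and 192 TPM in wild-type and 44.5 and 5.21 TPM in Pax5(-/-) libraries. Bst2, a plasmacytoid dendritic marker, was at 83.0, 123 and 103 TPM and at 120 and 163 TPM. The sums of T cell, erythroid and mature B markers were lower in both Pax5(-/-) libraries than in all wild-type libraries. Those of the myeloid and of the natural killer and plasmacytoid lists overlapped. For 9 myeloid markers the sums were 46.6 to 255 TPM in wild-type against 56.3 and 84.9 TPM in Pax5(-/-), with S100a8 at 2.26 TPM in wild-type replicate 1 and at 38.4 and 58.3 TPM in the others of that genotype. Mpo, of the same list, was at 11.1, 34.5 and 19.0 TPM in wild-type and 37.8 and 42.1 TPM in Pax5(-/-) libraries. For 6 erythroid markers they were 116 to 261 against 10.5 and 56.1 TPM, and Hbb-b1 was at 0 in all 5. For 10 T cell markers they were 51.3 to 57.5 against 25.4 and 28.7 TPM, with Cd3e at 0 in both Pax5(-/-) libraries. Of these 10, 4 had a higher mean in Pax5(-/-), among them Cd4 with 0.368 to 0.712 TPM in wild-type and 3.97 and 5.88 TPM in Pax5(-/-). For 5 mature B markers they were 36.6 to 83.6 against 12.3 and 13.3 TPM, and for 6 natural killer and plasmacytoid dendritic markers 85.6 to 134 against 124 and 176 TPM. Their part in the results was not tested. In Meox2-cre libraries, the myeloid sum reached 445 to 1227 TPM. Each library sums to 1000000 TPM, so the depth in reads is unknown, and relative depth, from the steps of low values, was 1 to 1.03 in wild-type and 0.855 and 1.54 in Pax5(-/-).

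Wild-type and Pax5(-/-) cells were compared with limma on log2(TPM + 0.5), where changes of genes near 0 TPM appear smaller than they are. Tested were 12066 genes whose mean exceeded 1 TPM in at least 1 of the genotypes, and a gene passed at a Benjamini-Hochberg adjusted p below 0.05. All 8 members were tested. Pik3ap1 and Akt2 fell and Pik3r1 rose in Pax5(-/-) cells, whereas Pik3cd, Pik3cg, Inpp5d, Akt1 and Foxo3 did not pass. Among all genes tested, 37.1% passed, with 21.5% of the genes lower and 15.6% higher in Pax5(-/-) cells. Pik3ap1 alone exceeded 3-fold with a mean above 5 TPM, a threshold that 3.89% of genes passed downwards and 3.35% upwards. These results were the same under all 12 alternatives for the passing of the test, including the omission of each library. The median absolute log2 change was 0.22 for the members and 0.39 for all genes tested. The median log2 change of all genes was -0.12, and it was 0.00 after rescaling by median ratios. Relative to that median, the members were at -2.53 (Pik3ap1), -0.51 (Akt2), -0.16 (Pik3cd), -0.06 (Akt1), -0.05 (Inpp5d), 0.07 (Foxo3), 0.28 (Pik3cg) and 1.62 (Pik3r1).

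**Figure D1:**
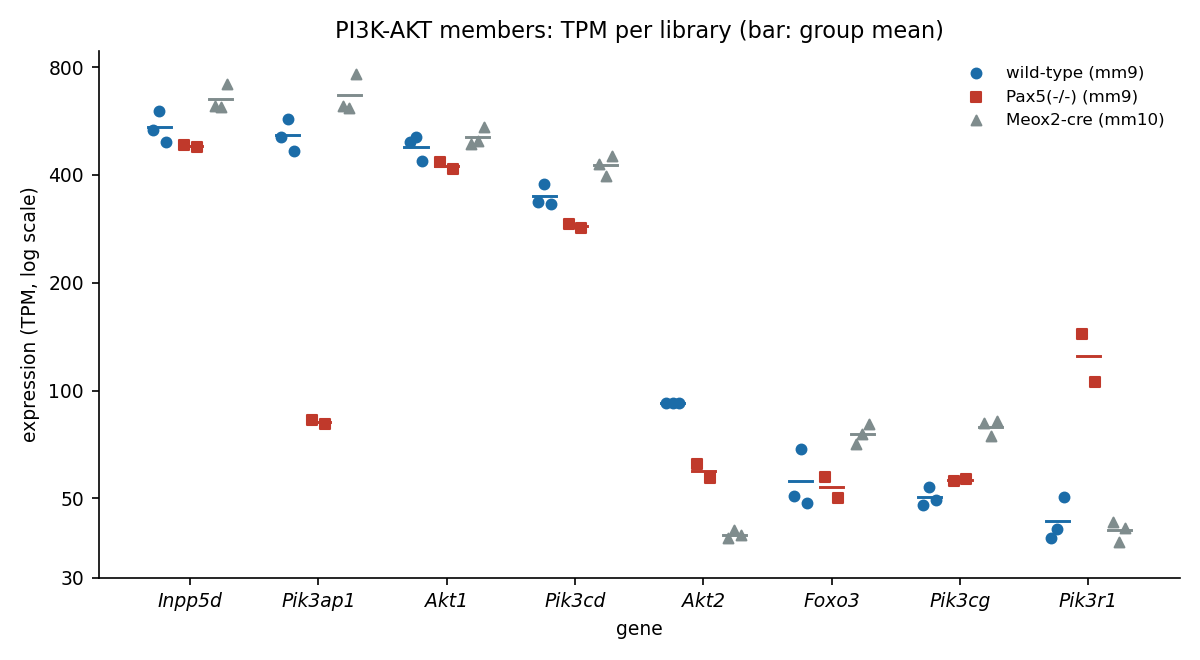
Expression in TPM on a log scale of the 8 members in each library, with a bar at the mean of wild-type (circles, 3 libraries), Pax5(-/-) (squares, 2 libraries) and Meox2-cre cells (triangles, 3 libraries, other genome build). Pik3ap1 lies at 465 to 573 TPM in wild-type and at 80.4 and 82.7 TPM in Pax5(-/-), and Pik3r1 lies at 106 and 143 TPM in Pax5(-/-) above all other libraries.

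Pik3ap1 encodes BCAP, an adaptor that binds p85 after tyrosine phosphorylation and carries the receptor signal to PI3K. It was at 509, 573 and 465 TPM in wild-type replicates 1 to 3 and at 82.7 and 80.4 TPM in Pax5(-/-) replicates 1 and 2. Every wild-type library was thus several times above both Pax5(-/-) libraries, whose values were nearly equal. The log2 change was -2.65 (SE 0.11, 95% interval -2.91 to -2.39, adjusted p = 7.64e-06 by limma), a 6.27-fold lower level. In bulk RNA, fewer cells that express a gene and less RNA per cell cannot be told apart. Of all genes tested, 2.89% had a larger absolute change. The gene lies at chr19:41346863-41459586 (mm9, minus strand), 278 kb from Blnk at chr19:41003417-41069025, which encodes BLNK, another adaptor of B cell receptor signaling. Blnk was at 808, 1154 and 955 TPM in wild-type and 163 and 104 TPM in Pax5(-/-) libraries, and its log2 change was -2.88 (SE 0.21, adjusted p = 8.34e-05 by limma).

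Among the genes whose 5 values lay nearest to those of Pik3ap1, by Euclidean distance of log2 values centred on the wild-type mean, were Vpreb1 (0.14) and Bst1 (0.21). Vpreb1, which encodes a surrogate light chain protein of the pre-B cell receptor, had a mean of 2019 TPM in wild-type and 336 TPM in Pax5(-/-) cells. Bst1, which encodes a surface enzyme also known as BP-3, had means of 131 and 21.8 TPM. The likeness was taken over 5 libraries and rests mostly on the difference between the genotypes.

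Pik3r1 encodes p85α and its shorter forms, the regulatory subunits that stabilise and restrain class IA p110 proteins. It was at 38.7, 40.9 and 50.3 TPM in wild-type and at 143 and 106 TPM in Pax5(-/-) libraries. The groups did not overlap, and the 2 Pax5(-/-) libraries differed from each other more than the wild-type libraries did. The log2 change was 1.5 (SE 0.17, 95% interval 1.11 to 1.90, adjusted p = 0.000578 by limma), or 2.84-fold, just short of the 3-fold threshold. It exceeded 3-fold without wild-type replicate 3 or Pax5(-/-) replicate 2 and after rescaling by median ratios or quantile normalization, and its log2 change was 1.28 to 1.72 when each library was left out. The gene lies at chr13:102450716-102538172 (mm9, minus strand), and 48 of its 7396 exonic bases are shared with Gm11016 on the other strand, whose reads cannot be told apart where counting ignores strand, as by default in featureCounts. The nearest genes by distance were A830010M20Rik (0.28), Sv2a (0.30) and Klf4 (0.31). Klf4, a transcription factor gene, had means of 4.16 TPM in wild-type and 12.3 TPM in Pax5(-/-) cells. Sv2a, a gene of synaptic vesicles, had means of 2.06 and 6.12 TPM. A830010M20Rik had means of 4.16 and 11.7 TPM.

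Both other regulatory genes of class IA were compared with Pik3r1 as shares, which were computed after the values were seen and are given without a test. Pik3r1 made up 43.1%, 45.1% and 54.9% of the summed TPM of Pik3r1, Pik3r2 and Pik3r3 in wild-type libraries and 73.2% and 67.9% in Pax5(-/-) libraries. The sum itself was 90.7 ± 0.926 TPM (SD, n = 3) in wild-type and 176 ± 28.6 TPM (SD, n = 2) in Pax5(-/-) cells. Pik3r2, which encodes p85β, had a mean of 46.9 TPM with an SD of 5.39 in wild-type and of 51.1 TPM with an SD of 1.88 in Pax5(-/-) cells, with a log2 change of 0.13 (adjusted p = 0.47 by limma). Pik3r3 was below 1 TPM on average in both genotypes and was not tested. In Meox2-cre libraries, the share of Pik3r1 was 40.4% to 42.7%.

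**Figure D2:**
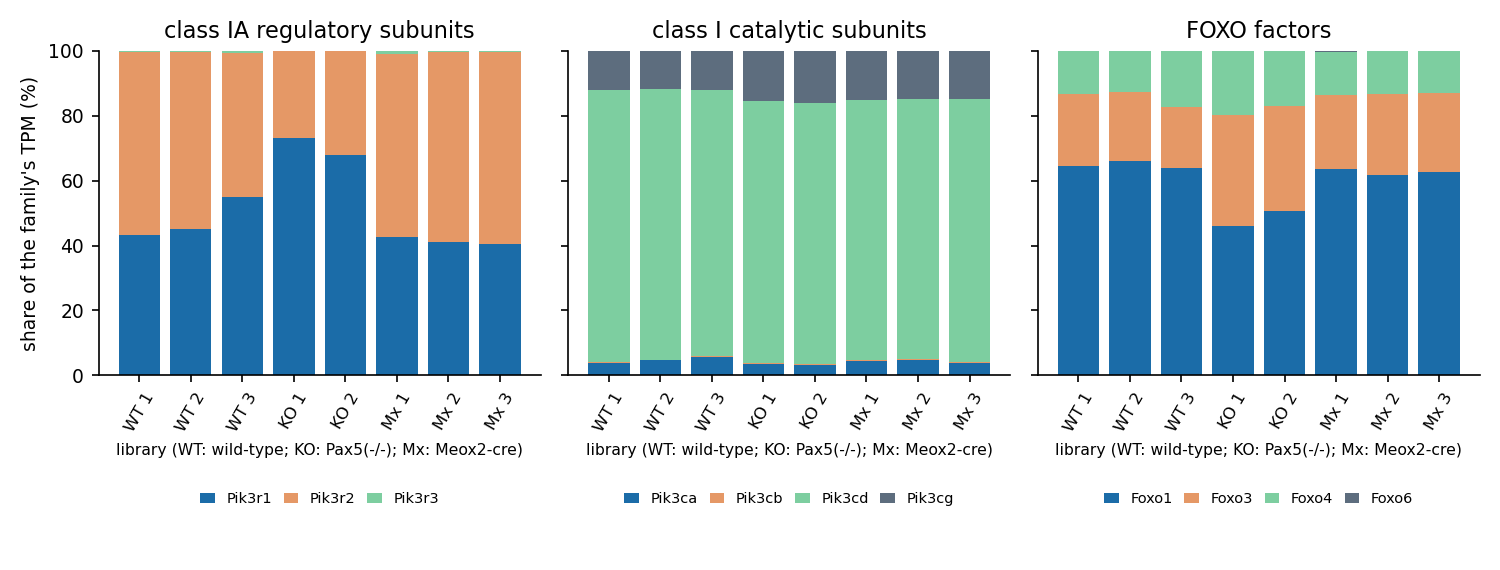
Share in percent of each gene in the summed TPM of its family, for class IA regulatory subunits, class I catalytic subunits and FOXO factors, 1 bar per library. Pik3r1 holds 73.2% and 67.9% of its family in the Pax5(-/-) libraries against at most 54.9% elsewhere, and Foxo1 holds 46.1% and 50.6% of FOXO there against at least 61.8% elsewhere.

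Neither of the catalytic members, both typical of leukocytes, passed the test. Pik3cd was at 335, 377 and 332 TPM in wild-type and 292 and 283 TPM in Pax5(-/-) libraries. The groups did not overlap, as for 7 of the 8 members and for 63.4% of all genes tested, but the log2 change of -0.27 (SE 0.10, 95% interval -0.50 to -0.04) did not pass (adjusted p = 0.0638 by limma). Pik3cg, whose product p110γ is coupled to G protein-coupled receptors, was at 47.9, 53.6 and 49.5 TPM and at 55.9 and 56.7 TPM. Both Pax5(-/-) values were above the wild-type values by less than 10 TPM, and the log2 change was 0.16 (SE 0.11, 95% interval -0.09 to 0.42, adjusted p = 0.279 by limma). Pik3cd held 93.1% to 95.4% of the summed TPM of the class IA catalytic genes Pik3ca, Pik3cb and Pik3cd in wild-type and 95.7% and 95.9% in Pax5(-/-) libraries, and was thus their dominant transcript in every library. In mm9, Pik3cd lies at chr4:149023277-149076680 and Pik3cg at chr12:32858338-32893524, both on the minus strand. The mm9 entries of Pik3cd and Akt1 carry a mark that reads as an overlap, although their exons share no base with another gene in the mm9 annotation of GENCODE.

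Inpp5d encodes SHIP1, the main 5-phosphatase of PIP3 in blood cells, and had the highest mean of all members in both genotypes. It was at 534, 602 and 494 TPM in wild-type and 485 and 478 TPM in Pax5(-/-) libraries. The lowest wild-type value was only slightly above the Pax5(-/-) values, and the log2 change was -0.17 (SE 0.11, 95% interval -0.43 to 0.09, adjusted p = 0.26 by limma). Inpp5d lies at chr1:89516887-89617082 (mm9, plus strand).

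Akt1, the AKT kinase gene with the highest level, was at 492, 509 and 438 TPM in wild-type and 434 and 415 TPM in Pax5(-/-) libraries. The values nearly met, and the log2 change was -0.17 (SE 0.10, 95% interval -0.41 to 0.06, adjusted p = 0.218 by limma). Akt2 was at 92.1, 92.3 and 92.5 TPM and at 62.2 and 57.1 TPM. The wild-type values were almost identical, with a coefficient of variation of 0.232%, whereas the median over 9388 genes above 5 TPM was 12.4%. Its log2 change was -0.63 (SE 0.10, 95% interval -0.86 to -0.40, adjusted p = 0.00277 by limma), and Akt2 was thus 1.54-fold lower in Pax5(-/-) cells. Without Pax5(-/-) replicate 2 its adjusted p by limma was 0.0491, the highest of all alternatives. In mm9, Akt1 lies at chr12:113892032-113913095 on the minus strand and Akt2 at chr7:28376571-28425845 on the plus strand.

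Foxo3 encodes a transcription factor that AKT phosphorylates. It was at 50.8, 68.5 and 48.6 TPM in wild-type and 57.3 and 50.0 TPM in Pax5(-/-) libraries and was the only member whose groups overlapped. The log2 change was -0.05 (SE 0.17, 95% interval -0.44 to 0.34, adjusted p = 0.843 by limma), and its sign turned with rescaling. Foxo1, the FOXO factor that activates the recombinase genes in B cell progenitors, was at 146, 212 and 163 TPM and at 77.3 and 78.4 TPM. Both Pax5(-/-) values were lower than each wild-type value, and Foxo1 fell by 1.14 on the log2 scale (SE 0.16, adjusted p = 0.0015 by limma). Foxo3 lies at chr10:41901647-41996561 (mm9, minus strand) and Foxo1 at chr3:52072259-52154031 (mm9, plus strand), where 674 of its 5552 exonic bases are shared with a transcript on the other strand.

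**Figure D3:**
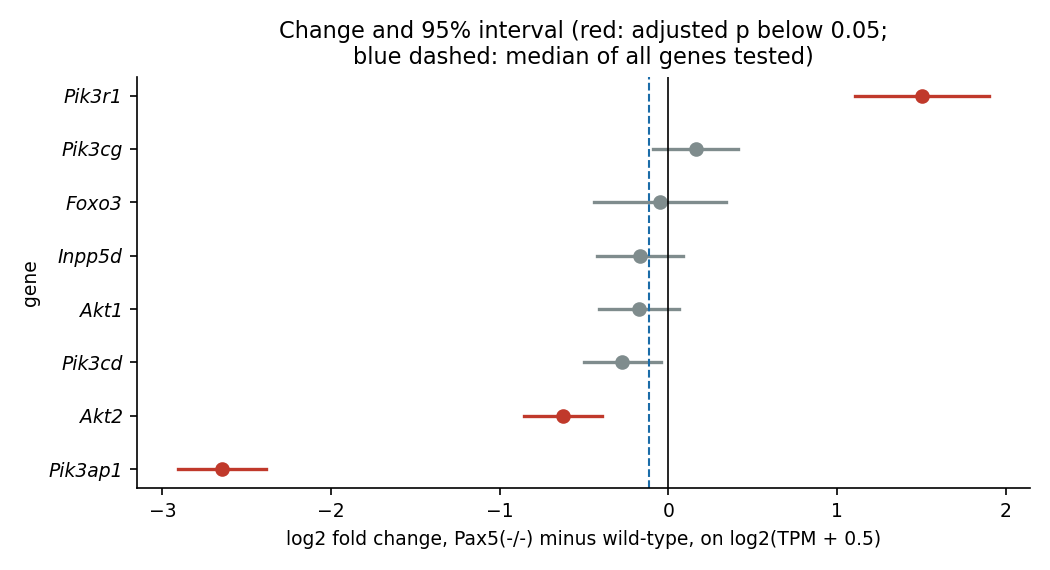
Log2 change of each member, Pax5(-/-) minus wild-type, on log2(TPM + 0.5), with 95% intervals. The intervals of Pik3ap1 (-2.91 to -2.39), Akt2 (-0.86 to -0.40) and Pik3r1 (1.11 to 1.90), which passed the test, lie clear of 0. The intervals are not adjusted for the number of genes. That of Pik3cd (-0.50 to -0.04) also excludes 0, although its adjusted p by limma was 0.0638. The dashed line marks the median of all genes at -0.12.

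The order of the levels differed between the genotypes mainly by the places of Pik3ap1 and Pik3r1. In wild-type cells the order of the mean TPM was Inpp5d (543), Pik3ap1 (516), Akt1 (480), Pik3cd (348), Akt2 (92.3), Foxo3 (56.0), Pik3cg (50.4) and Pik3r1 (43.3). The ranges of Inpp5d, Pik3ap1 and Akt1 overlapped from neighbour to neighbour, as did those of Foxo3, Pik3cg and Pik3r1. In Pax5(-/-) cells the order was Inpp5d (481), Akt1 (425), Pik3cd (288), Pik3r1 (124), Pik3ap1 (81.6), Akt2 (59.7), Pik3cg (56.3) and Foxo3 (53.6), and only Pik3cg and Foxo3 overlapped. Pik3ap1 went from rank 2 to rank 5 and Pik3r1 from rank 8 to rank 4. Among all genes tested, 2.4% had a higher mean than Pik3ap1 in wild-type and 19.5% in Pax5(-/-) cells, whereas for Pik3r1 these shares were 34.9% and 12.6%.

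Ratios between genes within a library do not depend on how libraries are scaled. Ratios were tested by an exact two-sided permutation test of their log2 values, for which 3 against 2 libraries give no p below 0.1. The ratio of Pik3cd to Pik3cg was 6.71 to 7.03 in wild-type and 5.22 and 5.00 in Pax5(-/-) libraries. That of Pik3r1 to Pik3cd, the regulatory to the main catalytic transcript, was 0.115, 0.109 and 0.151 and then 0.492 and 0.372. The regulatory transcript thus came closer to the catalytic one in both Pax5(-/-) libraries. The ratio of Akt1 to Akt2 was 5.35, 5.51 and 4.74 in wild-type and 6.98 and 7.27 in Pax5(-/-) libraries. The ratio of Foxo1 to Foxo3 was 2.87, 3.09 and 3.36 and then 1.35 and 1.57. These 4 ratios did not overlap between the genotypes, and each had the smallest permutation p that the design allows, 0.1, with an adjusted p of 0.125 over the 5 ratios computed. In Meox2-cre libraries, which were not tested against the mm9 tables, Pik3r1/Pik3cd was 0.0914, 0.0952 and 0.1 and Foxo1/Foxo3 was 2.48 to 2.79, both nearer to the wild-type than to the Pax5(-/-) values. Pik3cd/Pik3cg was 5.27 to 5.50 there, nearer to the Pax5(-/-) values, and Akt1/Akt2 was 12.2 to 13.8, above both genotypes. These cells are labelled Pax5(+/+). A ratio within a library still depends on build, aligner and annotation. These differ between the mm9 and mm10 libraries and cannot be told apart from a difference between the mice.

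**Figure D4:**
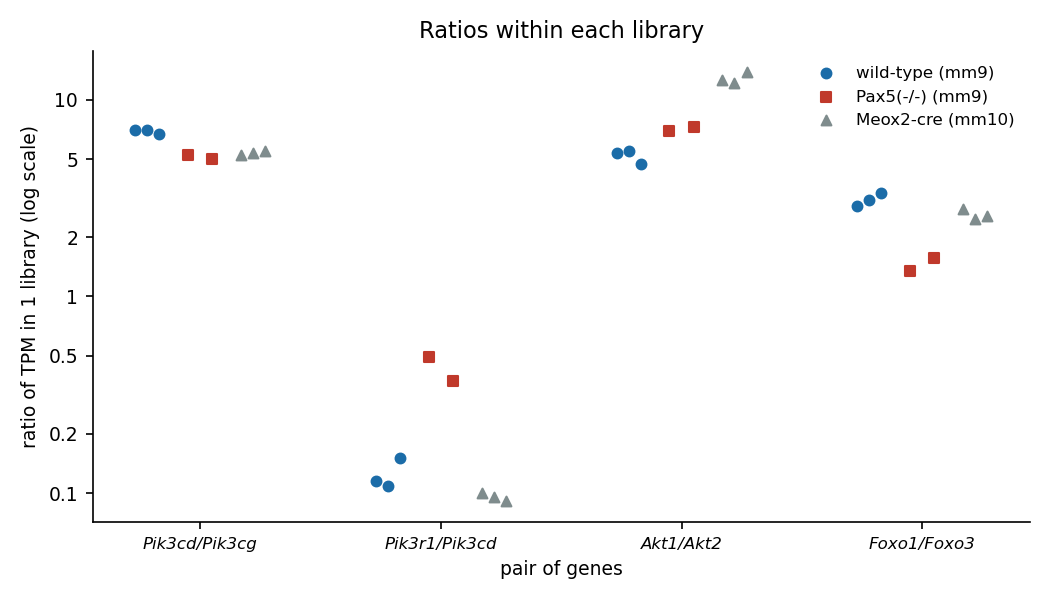
Ratio of the TPM of 2 genes within each library, on a log scale, for 4 pairs in wild-type (circles), Pax5(-/-) (squares) and Meox2-cre cells (triangles). For Pik3r1/Pik3cd the Pax5(-/-) libraries are at 0.492 and 0.372 and the wild-type libraries at 0.109 to 0.151.

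In the Meox2-cre pro-B cells, the members had levels of 667 ± 84.4 TPM for Pik3ap1, 652 ± 54.5 TPM for Inpp5d, 510 ± 31.2 TPM for Akt1 and 426 ± 27 TPM for Pik3cd (SD, n = 3 for each). The lower group consisted of Pik3cg with 79.3 ± 4.17 TPM, Foxo3 with 75.8 ± 4.90 TPM, Pik3r1 with 40.7 ± 2.61 TPM and Akt2 with 39.6 ± 1.07 TPM (SD, n = 3 for each). Pik3ap1 was at 624, 613 and 764 TPM in replicates 1 to 3, and Pik3r1 at 43.0, 37.9 and 41.3 TPM. Neighbours in this order overlapped for Pik3ap1 and Inpp5d, for Pik3cg and Foxo3, and for Pik3r1 and Akt2. The same 4 genes formed the upper group in wild-type cells. No test was made against the mm9 tables, since build, aligner and annotation differ.

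Other genes of the pathway were taken from 8 lists, of which 86 genes that are not members were tested. Of these 86 genes, 8 rose and 37 fell, beside 15.6% and 21.5% of all genes tested, and 41 did not pass. With rescaling by median ratios 13 rose and 32 fell, and without a filter on low values 5 rose and 31 fell. Without Pax5(-/-) replicate 1 the counts were 4 and 19, and without Pax5(-/-) replicate 2 they were 3 and 15. The median log2 change over these genes was -0.32, beside -0.12 for all genes tested. Counts and medians per list below include members, unlike these, and belong beside the same shares of all genes.

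**Figure D5:**
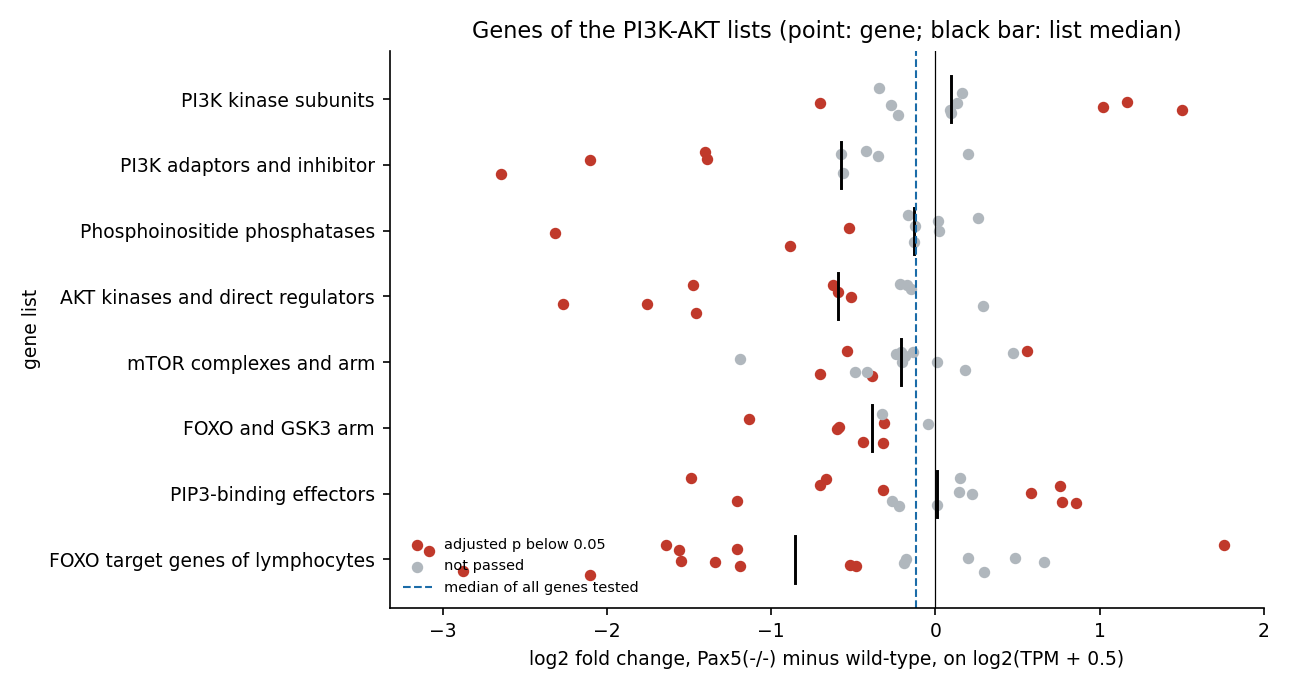
Log2 change, Pax5(-/-) minus wild-type, of each tested gene (points) in 8 lists of the pathway, members included, with the median of each list (black bar) and of all genes (dashed line, -0.12). The FOXO target genes have the lowest median at -0.85, and the kinase subunits have the highest at 0.09.

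Among kinase subunits, members included, 3 of 11 tested genes rose and 1 fell, with a list median of 0.09. Without members, 2 of 8 rose and 1 fell. All 3 genes of the whole list that rose encode regulatory subunits. Beside Pik3r1 these were Pik3r6 and Pik3r5, which encode the p84 and p101 partners of p110γ. Pik3r6 was at 20.2, 23.2 and 22.3 TPM in wild-type and 50.3 and 49.2 TPM in Pax5(-/-) libraries, a log2 change of 1.17 (SE 0.12, adjusted p = 0.00045 by limma). Pik3r5, named after its values were seen, was at 24.9, 30.8 and 23.0 TPM and at 49.7 and 57 TPM, a log2 change of 1.02 (SE 0.16, adjusted p = 0.00245 by limma). Their sum was 48.1 ± 5.03 TPM (SD, n = 3) in wild-type and 103 ± 4.42 TPM (SD, n = 2) in Pax5(-/-) cells, while the level of Pik3cg itself did not pass. Pik3ca, which encodes the widely expressed p110α, fell from 15.4, 21.0 and 23.3 TPM to 12.4 and 11.3 TPM, with a log2 change of -0.71 (adjusted p = 0.0287 by limma) that no longer passed without either Pax5(-/-) library or without wild-type replicate 2 or 3 (adjusted p 0.0545 to 0.228) or without a filter on low values (0.0565).

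In the list of adaptors, which also holds the inhibitor gene Pik3ip1, 4 of 9 genes fell and none rose, with a median of -0.58. Without the member Pik3ap1, 3 of 8 fell. Irs2, an adaptor of insulin and cytokine receptors, was at 25.7, 43.9 and 27.2 TPM in wild-type and 7.05 and 6.74 TPM in Pax5(-/-) libraries (log2 change -2.10, SE 0.24, adjusted p = 0.000615 by limma). The remaining genes that fell were Pik3ap1, Irs1 and Gab1. Irs1 was near the floor, at 0.705, 1.15 and 1.82 TPM in wild-type and 0.194 and 0.0716 TPM in Pax5(-/-) libraries. It was tested only because its wild-type mean exceeded 1 TPM, so its fall is weak evidence. Pik3ip1, which encodes an inhibitor of p110, was at 41.9, 88.5 and 78.1 TPM in wild-type and 66.3 and 87.4 TPM in Pax5(-/-) libraries and did not pass (adjusted p = 0.632 by limma).

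Of 9 tested phosphoinositide phosphatases, 3 fell and none rose, beside 21.5% and 15.6% of all genes tested. The list median of -0.13 was near that of all genes, -0.12. Inppl1, which encodes SHIP2, was at 8.30, 8.65 and 11.8 TPM in wild-type and 1.48 and 1.51 TPM in Pax5(-/-) libraries (log2 change -2.32, SE 0.23, adjusted p = 0.000304 by limma). SHIP1 transcripts outnumbered it in all libraries, since Inpp5d held 97.7% to 98.6% of the sum of both genes in wild-type and 99.7% in each Pax5(-/-) library. Of the 5095 exonic bases of Inppl1, 735 are shared with genes on the other strand, 534 with Phox2a and 201 with the pseudogene Gm10602. Synj1, a 5-phosphatase of endocytosis, fell by 0.88 on the log2 scale (adjusted p = 0.0187 by limma), a result that was lost without either Pax5(-/-) library or wild-type replicate 2 (adjusted p 0.0656 to 0.169).

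Of 11 tested AKT kinases and direct regulators, members included, 7 fell and none rose, with a median of -0.59. Without members, 6 of 9 fell. The genes that fell included both negative and positive regulators. Phlpp1, which encodes a phosphatase that inactivates AKT, was at 18.3, 24.9 and 19.9 TPM in wild-type and 5.75 and 5.89 TPM in Pax5(-/-) libraries (log2 change -1.76, SE 0.18, adjusted p = 0.000392 by limma). Trib2, a pseudokinase gene, was at 8.41, 8.82 and 14.9 TPM and at 1.48 and 2.05 TPM (log2 change -2.27, SE 0.29, adjusted p = 0.00104 by limma). In the mm10 tables of Meox2-cre cells, Trib2 was at 85.0 to 107 TPM, far above the mm9 wild-type values, and what sets the tables apart was not tested. Pdpk1, whose kinase PDK1 activates AKT, was named after its values were seen and fell by 0.51 on the log2 scale (SE 0.14, adjusted p = 0.0238 by limma). How Pdpk1 fared under the alternatives was not examined.

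In the mTOR arm, 1 of 15 genes rose and 3 fell, beside 15.6% and 21.5% of all genes tested. The list median was -0.21, beside -0.12 for all genes. Mtor was at 48.9, 48.2 and 52.7 TPM in wild-type and 34.1 and 27.3 TPM in Pax5(-/-) libraries (log2 change -0.70, SE 0.13, adjusted p = 0.00612 by limma). Akt1s1, which encodes the AKT substrate PRAS40, was at 64.9, 79.0 and 66.1 TPM and at 105 and 101 TPM (log2 change 0.56, SE 0.12, adjusted p = 0.0101 by limma). Eif4ebp1, an inhibitor of translation that mTOR inactivates, had a log2 change of -0.54 (adjusted p = 0.034 by limma). Mtor lost its adjusted p below 0.05 without Pax5(-/-) replicate 2 (0.0846), Akt1s1 without either Pax5(-/-) library (0.0897 and 0.102), and Eif4ebp1 without wild-type replicate 1 or 2 or either Pax5(-/-) library (0.0629 to 0.278), with median-ratio or quantile scaling (0.14 and 0.0768), without a filter on low values (0.0695) and with eBayes without trend (0.079). In the FOXO and GSK3 arm, 6 of 8 tested genes fell and none rose, with a median of -0.39. Beside Foxo1 these included Sirt1, a deacetylase gene, with a log2 change of -0.60 (adjusted p = 0.0451 by limma) that did not pass when any library but wild-type replicate 1 was left out (adjusted p 0.0837 to 0.249), without a filter on low values (0.0784) or with eBayes without trend (0.0593).

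Among 15 tested genes of the list of PI3K lipid effectors, 4 rose and 5 fell, beside 15.6% and 21.5% of all genes tested. The list median was 0.01. Not all of these genes encode proteins that bind PIP3 itself. Sgk1, a kinase gene related to AKT, was at 43.6, 60.7 and 69.9 TPM in wild-type and 19.1 and 20.9 TPM in Pax5(-/-) libraries (log2 change -1.49, SE 0.20, adjusted p = 0.00129 by limma). Plekha2, the gene of the phosphoinositide-binding adaptor TAPP2, was at 283, 306 and 285 TPM and at 123 and 128 TPM (log2 change -1.21, SE 0.09, adjusted p = 9.46e-05 by limma), and 15.3% of its exonic bases are shared with a noncoding gene on the other strand. The largest rises were those of a pair of regulators of ARF GTPases. Adap1 had a log2 change of 0.86 (adjusted p = 0.0286 by limma) and Arap3 of 0.77 (adjusted p = 0.0499 by limma). Neither passed without either Pax5(-/-) library (adjusted p 0.181 to 0.311), and Arap3 did not pass without wild-type replicate 1 or 3 (0.0741 and 0.0899). Neither passed without a filter on low values (0.0644 and 0.101) or with eBayes without trend (0.0577 and 0.0538), and Arap3 did not pass with a pseudocount of 0.1 (0.0513).

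Of 18 known FOXO target genes of lymphocytes, 1 rose, 11 fell and 6 did not pass, with a median of -0.85. Of all genes tested, 15.6% rose and 21.5% fell. The gene that rose was Ccnd2, which encodes the cell cycle protein cyclin D2. Ccnd2 was at 82.9, 76.1 and 102 TPM in wild-type and 307 and 280 TPM in Pax5(-/-) libraries (log2 change 1.76, SE 0.14, adjusted p = 0.000104 by limma). Il7r was higher in both Pax5(-/-) libraries (154 and 158 TPM) than in the wild-type libraries (81.7, 121 and 141 TPM) but did not pass (log2 change 0.48, adjusted p = 0.111 by limma). The log2 change of Ccr7 was 0.66 (adjusted p = 0.0607 by limma). The other genes that did not pass were Sesn1 (log2 change 0.30), Pik3ip1 (0.20), Sesn3 (-0.19) and Bcl2l11 (-0.18). The genes that did not pass were named here after their values were seen. Klf2 is known to be activated by FOXO1, and Ccnd2 is known to be repressed by FOXO proteins. Whether FOXO proteins account for the changes in this list was not tested. Klf2, a factor of lymphocyte quiescence and migration, was at 25.5, 22.3 and 24.5 TPM and at 1.55 and 3.61 TPM (log2 change -3.08, SE 0.29, adjusted p = 0.00025 by limma). Bcl6, a repressor gene, was at 12.2, 20.8 and 20.4 TPM and at 6.22 and 4.37 TPM (log2 change -1.64, SE 0.28, adjusted p = 0.00348 by limma), and did not pass without Pax5(-/-) replicate 2 (adjusted p = 0.0761). Blnk and Irs2, described above, also fell more than 3-fold. The recombinase genes Rag1 and Rag2, named after their values were seen, also fell. Rag1 was at 267, 338 and 363 TPM and at 236 and 211 TPM (log2 change -0.52, adjusted p = 0.0264 by limma). Rag2 was at 57.4, 73.2 and 68.8 TPM and at 22.5 and 21.7 TPM (log2 change -1.56, adjusted p = 0.00018 by limma). Rag1, Rag2 and Il7r stand both in this list and among the pro-B markers.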

How the data were processed

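RNA-seq was measured in 3 wild-type, 2 Pax5(-/-) and 3 Meox2-cre pro-B cell samples. The authors removed ribosomal reads, aligned the remainder with TopHat 1.4.1a (mm9) or STAR 2.4.2a (mm10), counted reads per gene with featureCounts 1.5.0 on refGene annotations and deposited TPM values. No counts are in these tables, so intervals that need depth were not computed. Libraries were grouped by genotype label. The labels do not say that replicates came from separate animals, so p-values measure the spread between these samples only.

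The comparison of genotypes used limma 3.58.1 (R 4.3.3; lmFit and eBayes with trend) on log2(TPM + 0.5) without covariates, with p-values adjusted by Benjamini-Hochberg over all 12066 genes with a mean above 1 TPM in a genotype. The fit was tested on simulated data. The 3-fold threshold required an adjusted p below 0.05 and a mean above 5 TPM, without immunoglobulin and T cell receptor genes. Ratios were tested by exact permutation. Named were all members, genes of each list past 3-fold, the 2 largest changes that passed per list and direction, Foxo1 and the up to 3 nearest genes of Pik3ap1 and Pik3r1. Some genes of the lists, with their ratio and likeness, are not reported here and were left out of the counts. Members and lists were chosen with earlier results of these data known. Alternatives were pseudocounts of 0.1 and 1, no filter or 5 TPM, eBayes without trend, median-ratio and quantile scaling, leaving out each library and, for Meox2-cre levels, rescaling without immunoglobulin and T cell receptor genes. Coordinates are from GENCODE (mm9), promoters from RefSeq (GRCm38.p6). Tables and figures were made with Python 3.11.15, pandas 2.3.3 and matplotlib 3.10.9. The ChIP-seq samples were not used here.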

Additional observations from a re-analysis of the deposited data

How the results depend on the processing

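The passing of Pik3ap1, Akt2 and Pik3r1 and the failure of the other 5 members to pass held under all 12 alternatives. The number of members that exceeded 3-fold upwards was 0 and became 1 (Pik3r1) with median-ratio rescaling and with quantile normalization, and was 0 to 1 when each library was left out. The number of other pathway genes that rose was 13 instead of 8 with median-ratio rescaling, 5 without a filter on low values, and 3 to 9 when each library was left out, and the number that fell was then 15 to 44 instead of 37. The log2 change of Foxo3, -0.05, turned to 0.067 with median-ratio rescaling and 0.046 with quantile normalization, and was -0.14 to 0.11 when each library was left out. The cause was not tested. The 4 ratios kept their direction. Of 336 repeats of the log2 changes of 28 named genes, 295 kept both direction and side of the threshold and 37 lost an adjusted p below 0.05. Other genes given with a result were not followed singly under the alternatives. Among them were Pik3r5, Pdpk1, Plcg2, Plcg1, Btk, Rag1, Rag2, Irs1 and Gab1. No paired analysis was possible because replicate numbers are not in the labels, and those used here follow accession order and pair nothing. With 2 Pax5(-/-) libraries, leaving out either assumes that the other varies like the wild-type libraries, and 1529 to 1789 instead of 4481 genes then passed. Values of low genes such as Pik3r3 are limited by an unknown depth.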

Other observations

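Ddit4, which encodes an inhibitor of mTOR complex 1 that is induced by stress, was chosen after its values were seen. It differed between the Pax5(-/-) libraries, with 17.3 and 88.8 TPM in replicates 1 and 2, and was at 65.2, 123 and 91.4 TPM in wild-type libraries. Its log2 change of -1.19 had an SE of 0.60 and did not pass (adjusted p = 0.157 by limma). In the Meox2-cre libraries it was at 94.6 to 98.2 TPM.

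Plcg2, which encodes the phospholipase PLCγ2 of B cell receptor signaling, was also chosen after its values were seen, and rose from 328, 295 and 290 TPM to 540 and 490 TPM (log2 change 0.76, SE 0.10, adjusted p = 0.00131 by limma). Plcg1 and Btk of the same list fell, by 0.66 and 0.70 on the log2 scale (adjusted p = 0.00964 and 0.00362 by limma).

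Akt2 was at 92.1 to 92.5 TPM in the wild-type libraries and at 38.6 to 40.8 TPM in the Meox2-cre libraries, whereas Akt1 was at 438 to 509 and 487 to 546 TPM. The libraries were aligned to different builds with different tools and annotations, which cannot be told apart from a difference between the mice.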
